A study of Mus musculus with 12 samples.

Results

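The comparison described here is between libraries labelled CD8aa intraepithelial lymphocytes, sorted from mice that had received either CD4 or CD8αβ T cells. Origin here means the type of T cell the host received. It takes in the 6 CD8aa libraries of the 12 RNA-seq libraries of the study, chosen by their titles. CD8aa from CD4 holds 3 libraries and CD8aa from CD8ab holds 3. The other 6 libraries are companion groups of the same origins, 3 of CD4 IEL and 3 of CD8ab IEL, and their levels are given for scale.

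All 12 libraries came from Rag2-/- mice, which cannot make T or B cells. Each recipient was given CD4 or CD8αβ T cells from the lymph nodes of Themis wild-type donors by intravenous injection. Small intestinal cells were taken 1 week later and sorted by surface TCRβ together with CD8αα, CD8αβ or CD4. The labels give neither the age nor the sex of hosts or donors, and do not say whether replicates came from different mice. The p-values therefore speak of the spread among these libraries, part of which may be technical. Within each CD8aa group the libraries differed in sex-linked transcripts, given below, so their RNA did not all come from the same mice. The type of T cell a host received and the host itself cannot be told apart, nor do the labels say whether CD8aa and companion cells came from the same hosts.

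Intraepithelial lymphocytes (IEL) lie between the epithelial cells of the gut and are among the first lymphocytes to meet its contents. Conventional T cells that enter this layer can gain CD8αα, a pair of 2 CD8α chains. In CD4 T cells the gain goes with loss of the transcription factor ThPOK, made from Zbtb7b, and with activity of Runx3. Hosts without Rag2 keep innate lymphoid cells, and some of those in the gut epithelium also carry CD8αα.

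The labelled identity was checked first. Cd8a, the gene for the CD8α chain, stood at 2430, 2690 and 2824 CPM, the count scaled to a fixed library size after TMM normalization, in the CD8aa from CD4 libraries, against 2746, 2902 and 3248 CPM in the CD8aa from CD8ab libraries. Both groups therefore carried the transcript named in their label. The markers of αβ T cells did not follow the label. Of the 12 listed, 11 were below 10% of the companion group of the same origin in both CD8aa groups. Cd5, a surface protein of αβ T cells, averaged 3.40 CPM in CD8aa from CD4 and 0.810 CPM in CD8aa from CD8ab, against 693 CPM in CD4 IEL and 368 CPM in CD8ab IEL. Cd3e, a chain of the T cell receptor complex, averaged 8.23 CPM in CD8aa from CD4 and 18.4 CPM in CD8aa from CD8ab, against 557 and 493 CPM in CD4 IEL and CD8ab IEL. Within CD8aa from CD4, replicate 3 was the highest at Cd5 and Cd6, with 8.42 and 18.9 CPM. The exception was Cd3g, another chain of that complex, at 2126 CPM in CD8aa from CD4 and 3546 CPM in CD8aa from CD8ab.

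Markers of innate lymphoid cells were high instead. Tyrobp, the DAP12 signalling adaptor of NK receptors, averaged 1655 CPM in CD8aa from CD4 and 2219 CPM in CD8aa from CD8ab, against 37.6 CPM in CD4 IEL and 76.3 CPM in CD8ab IEL. Fcer1g, a signalling chain of Fc and NK receptors, averaged 1110 and 1682 CPM in the same 2 CD8aa groups, against 18.5 and 31.5 CPM in CD4 IEL and CD8ab IEL. The summed level of the 18 listed NK and innate lymphoid markers lay between 4061 and 4830 CPM in CD8aa from CD4 and between 4605 and 7019 CPM in CD8aa from CD8ab. In the 6 companion libraries it lay between 1801 and 2177 CPM. Rag2 itself had 1 read over the 12 libraries, and since mature T cells do not use it either, it does not check the labels. The groups are therefore called here by their titles, without the name of a cell type. Whether the RNA came from progeny of the transferred T cells or from innate cells of the host was not tested.

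Sex-linked transcripts also set libraries apart. Replicates 1 and 2 of CD8aa from CD4, with 644 and 485 CPM of Xist, and replicates 1 and 3 of CD8aa from CD8ab, with 382 and 373 CPM, carried the X-inactivation transcript. Their 4 Y-linked genes together reached between 0.341 and 1.03 CPM. Replicate 3 of CD8aa from CD4 had 363 CPM of the Y-linked genes, and replicate 2 of CD8aa from CD8ab had 321 CPM. All 6 companion libraries had Y-linked transcript, between 233 and 449 CPM, with Xist between 0 and 36.4 CPM. The 2 classes were split alike over the CD8aa groups, 2 libraries against 1 in each, but 4 of the 6 CD8aa libraries differed in this from every companion library. Which mice these transcripts came from was not tested.

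**Figure D1:**
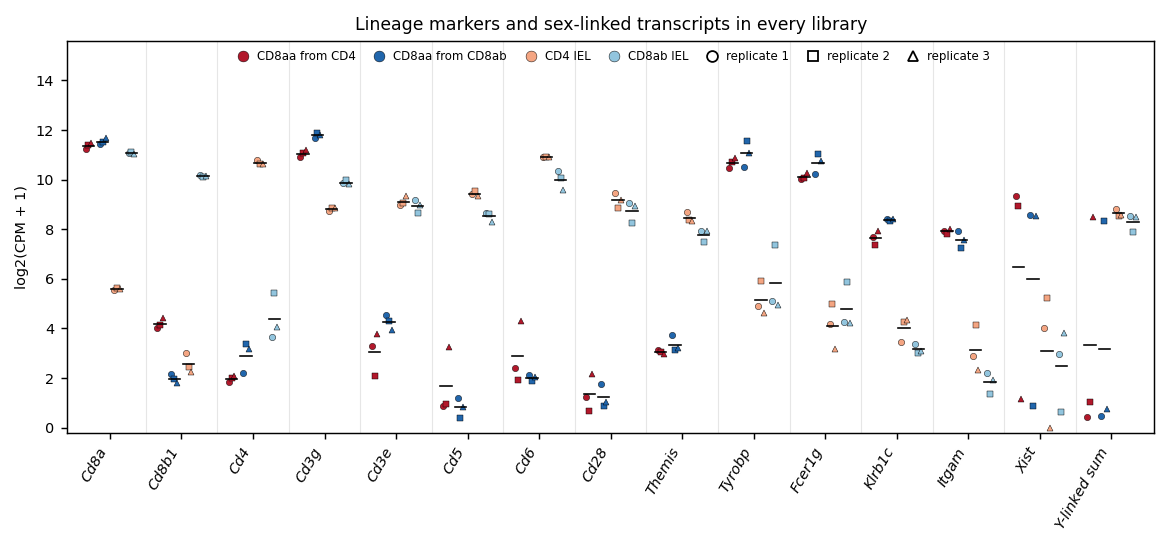
Level of lineage markers and sex-linked transcripts, as log2(CPM + 1), in each of the 12 libraries, with bars at the group means of the log values. Both CD8aa groups have high Cd8a, Tyrobp and Fcer1g and low Cd3e, Cd5, Cd6 and Cd28, and 4 CD8aa libraries carry Xist while the other 2 carry Y-linked transcript.

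Depth ranged from 5620257 to 11070734 reads assigned to genes per library. The 31 epithelial markers found in the table summed to between 851 and 1149 CPM in CD8aa from CD4 and between 791 and 1499 CPM in CD8aa from CD8ab. The 25 myeloid markers summed to between 1361 and 1553 CPM in CD8aa from CD4 and between 965 and 1172 CPM in CD8aa from CD8ab, carried mostly by Itgax, Itgam and Fcgr3, while S100a8, S100a9 and Mpo had no read in any CD8aa library. Itgax was the called member of the myeloid list, and Lyz2, a lysozyme of macrophages, had 2.05, 13.3 and 3.43 CPM in CD8aa from CD4, against 0.934, 1.49 and 0 CPM in CD8aa from CD8ab, without a call. The 7 MHC class II genes summed to between 361 and 599 CPM in CD8aa from CD4 and between 223 and 398 CPM in CD8aa from CD8ab, with a median log2 fold change of 0.78. Of them H2-Eb1 was called, at 55.6, 76.8 and 108 CPM in CD8aa from CD4, against 24.5, 38.6 and 19.6 CPM in CD8aa from CD8ab (edgeR adjusted p = 0.0336). The part of these cells in the results was not tested. The 10 B cell markers summed to between 47.4 and 60.5 CPM in CD8aa from CD4 and between 72.1 and 76.5 CPM in CD8aa from CD8ab, nearly all of it Cd79b, with Pax5 and Ebf1 at 0. In bulk RNA, fewer cells of a type and less RNA per cell cannot be told apart.

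Across all expressed genes the 2 CD8aa groups were close to each other. Of 12622 genes tested with edgeR's quasi-likelihood test, 548 (4.34%) passed an adjusted p of 0.05, of which 236 (1.87%) were higher and 312 (2.47%) lower in CD8aa from CD4. At an unadjusted p under 0.05 there were 2372. Between the companion groups, 3653 genes (28.9%) passed, with 1628 (12.9%) higher and 2025 (16.0%) lower in CD4 IEL than in CD8ab IEL. The median absolute log2 fold change over all genes tested was 0.31 between the CD8aa groups and 0.53 between the companion groups. It was 0.48 for CD8aa from CD4 against CD4 IEL and 0.49 for CD8aa from CD8ab against CD8ab IEL. Among the 548 genes, 293 differed by more than 1 on the log2 scale.

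Pairs of libraries gave the same order of sizes. Pairs of libraries drawn from both CD8aa groups differed by a median absolute log2 value between 0.295 and 0.496, and pairs within 1 CD8aa group by between 0.259 and 0.298. Pairs of CD4 IEL and CD8ab IEL libraries differed by between 0.513 and 0.740. The number of calls was 166 and 192 without replicate 1 or 2 of CD8aa from CD4, and to 181 and 182 without replicate 2 or 3 of CD8aa from CD8ab. With the 4 CD8aa libraries that carried Xist alone, 2 against 2, it was 141, of which 128 were among the 548. The median log2 fold change over all genes was -0.03. Scaling by library totals alone moved it to 0.05 and turned the split to 314 higher and 221 lower.

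The libraries of the 2 CD8aa groups did not overlap at 3641 genes (28.8% of those tested), and 544 of the 548 called genes were among them. In 389 of the 548 (71.0%) the CD8aa and companion means interleaved, against 49.2% of all genes tested. Both CD8aa groups lay below both companion groups in 101 (18.4%, against 24.2% of all genes) and above both in 58 (10.6%, against 26.6%). In 80 of the 548 (14.6%) the difference between origins was smaller than both differences from the companion of the same origin, against 50.3% of all genes tested. The calls were made on the difference between origins, so these shares are a description of where the called genes stand.

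Heat shock and chaperone genes were lower in CD8aa from CD4. These genes encode the proteins that hold and refold others, and heat shock factor drives many of them. Of 26 tested members, 14 fell and 0 rose (53.8% called, against 4.34% of all genes tested). The median log2 fold change was -0.97, and DESeq2 called 15 lower and 0 higher. At an unadjusted p under 0.05, 20 were lower and 1 was higher, beside 2372 of all 12622 genes in either direction. The inducible HSP70 gene Hspa1a stood at 406, 806 and 1345 CPM in CD8aa from CD4, against 3681, 7075 and 4943 CPM in CD8aa from CD8ab. No library of the first group reached the lowest of the second, and the log2 fold change was -2.62 ± 0.42 (SE, n = 3 each; edgeR adjusted p = 0.00434). Hspa1a has a near-identical neighbour, so reads may be split between the 2 copies.

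Its partner Dnajb1, a co-chaperone of the HSP40 family, had 437, 657 and 1019 CPM in CD8aa from CD4, against 2594, 4390 and 3565 CPM in CD8aa from CD8ab. The log2 fold change was -2.32 ± 0.32 (SE; edgeR adjusted p = 0.00182). Hsph1, a nucleotide exchange factor for HSP70, had 168, 248 and 340 CPM in CD8aa from CD4, against 876, 986 and 871 CPM in CD8aa from CD8ab. Hsp90aa1, the inducible HSP90, had 268, 333 and 541 CPM in CD8aa from CD4, against 1122, 1595 and 1548 CPM in CD8aa from CD8ab. All 3 were separated without overlap. Within CD8aa from CD4, replicate 3 was the highest library at 21 of the 26 members and replicate 1 the lowest at 21. Within CD8aa from CD8ab, replicate 2 was the highest at 22 and replicate 1 the lowest at 22.

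Hspb1, a small heat shock protein, was at 1.36, 2.29 and 3.90 CPM in CD8aa from CD4, against 22.1, 57.1 and 29.4 CPM in CD8aa from CD8ab. It had a log2 fold change of -3.84 ± 0.68 (SE; edgeR adjusted p = 0.00748). Without replicate 1 of CD8aa from CD4 its adjusted p was 0.0517. The mitochondrial chaperonins Hspd1 and Hspe1 fell by 1.22 and 1.42 on the log2 scale. The call of Hspe1 ended without replicate 1 or 2 of CD8aa from CD4 (adjusted p = 0.149 and 0.105) and without replicate 2 or 3 of CD8aa from CD8ab (adjusted p = 0.127 and 0.0762).

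The chaperone list fell in the companion groups too. Between CD4 IEL and CD8ab IEL 12 of the 26 were lower in CD4 IEL and 0 higher, with a median of -0.74, and at 0 of the 26 did the difference between origins differ between CD8aa and companion groups by the edgeR test. Left without replicate 1 or 2 of CD8aa from CD4, or replicate 2 of CD8aa from CD8ab, the CD8aa count was 8, 9 and 9. The Xist libraries alone gave 9.

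The motif GAANNTTC, a pair of heat shock element units that reads the same on both strands, was sought in the 250 bases before each start site, taken from RefSeq on build GRCm38.p6. It stood in the promoters of 5 of the 11 fallen chaperone genes with a promoter in that table (45.5%) and in 8 of the 21 tested ones (38.1%), against 7.73% of all 27025 genes with one and 6.30% of the 8743 tested genes with one. Windows around it are printed for 3 genes, Hspb1 and Hspa1a for their large falls and Hspe1 for the start it shares with Hspd1, with the motif in capitals and in the direction of transcription.
Hspb1, chr5:135887798-135887853, plus strand: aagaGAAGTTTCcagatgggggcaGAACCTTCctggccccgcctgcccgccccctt
Hspa1a, chr17:34972229-34972284, minus strand: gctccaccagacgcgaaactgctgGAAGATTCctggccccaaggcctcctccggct
Hspe1, chr1:55088040-55088095, plus strand: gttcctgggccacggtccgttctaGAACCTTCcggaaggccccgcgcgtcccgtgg
The window of Hspe1 is also that of Hspd1 on the minus strand, since both genes start from it in opposite directions. A match is a run of letters and no evidence that a factor binds there.

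Interferon-stimulated genes were the second list to fall as a block. Type I and II interferons induce them through STAT and IRF factors, and their products curb viruses or present antigen. Of 52 tested members 20 fell and 0 rose (38.5% called, against 4.34% of all genes tested). The median log2 fold change was -1.23, and all 52 had a negative fold change. At an unadjusted p under 0.05, 31 were lower and 0 higher, and DESeq2 called 25 lower and 0 higher. Ifi27l2a, an interferon-induced protein, stood at 4.61, 3.89 and 3.43 CPM in CD8aa from CD4, against 11.2, 115 and 150 CPM in CD8aa from CD8ab. Mx2, of an antiviral GTPase family but annotated as a polymorphic pseudogene, had 2.56, 0.916 and 1.56 CPM in CD8aa from CD4. In CD8aa from CD8ab it had 8.97, 25.6 and 49.7 CPM. Gbp10, a guanylate-binding GTPase with close relatives, had 11.6, 12.8 and 7.95 CPM in CD8aa from CD4, against 32.0, 97.4 and 184 CPM in CD8aa from CD8ab.

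In all 3 the groups did not overlap, but the CD8aa from CD8ab libraries were far from each other. Their log2 fold changes were -4.53 ± 0.87 for Ifi27l2a, -4.10 ± 0.73 for Mx2 and -3.27 ± 0.54 for Gbp10 (SE; edgeR adjusted p = 0.0123, 0.00756 and 0.00553). The call of Ifi27l2a ended without replicate 1 or 2 of CD8aa from CD4 (adjusted p = 0.0656 and 0.0674) and that of Mx2 without replicate 2 (adjusted p = 0.0530). With the Xist libraries alone the adjusted p of Gbp10 was 0.0605.

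Ifit3 and Ifit1, antiviral proteins of 1 interferon-induced family, showed the same spread. Ifit3 had 4.78, 3.21 and 4.83 CPM in CD8aa from CD4, against 10.8, 51.1 and 153 CPM in CD8aa from CD8ab. Ifit1 had 8.87, 12 and 9.98 CPM in CD8aa from CD4, against 21.1, 95.1 and 199 CPM in CD8aa from CD8ab. The call of Ifit3 ended without any 1 of the CD8aa from CD4 libraries (adjusted p = 0.0856, 0.0908 and 0.0516 without replicates 1, 2 and 3) and without replicate 3 of CD8aa from CD8ab (adjusted p = 0.0746). That of Ifit1 ended likewise (adjusted p = 0.118, 0.0907 and 0.0689 without the CD8aa from CD4 libraries, 0.0563 and 0.0996 without replicates 2 and 3 of CD8aa from CD8ab). Replicate 3 of CD8aa from CD8ab was the highest of its group at 48 of the 52 members and replicate 1 the lowest at 48. Among the CD8ab IEL libraries replicate 3 was likewise the highest at 49 members and replicate 1 the lowest at 43. Among the CD8aa from CD4 libraries each of the 3 was the highest at between 15 and 21 members, and replicate 1 was the lowest at 28.

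Interferon-stimulated genes made up 8 of the 10 leading falls, the others being Hspb1 and Col27a1. Usp18, a protease that removes ISG15 from proteins, had 1.54, 4.12 and 3.59 CPM in CD8aa from CD4, against 9.81, 42.1 and 96.2 CPM in CD8aa from CD8ab. Rsad2, the antiviral protein viperin, had 7.85, 6.98 and 21.8 CPM in CD8aa from CD4, against 60.3, 103 and 248 CPM in CD8aa from CD8ab. Oas3, which makes the activator of RNase L, had 9.72, 4.24 and 5.61 CPM in CD8aa from CD4, against 12.4, 37.3 and 137 CPM in CD8aa from CD8ab. The groups did not overlap at these 3 genes. All 3 lost their calls without replicate 1 or 2 of CD8aa from CD4 and without replicate 3 of CD8aa from CD8ab (adjusted p between 0.0646 and 0.118). Usp18 and Oas3 also lost theirs without replicate 3 of CD8aa from CD4 (adjusted p = 0.0597 and 0.0794), and Usp18 without replicate 2 of CD8aa from CD8ab (adjusted p = 0.0506).

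The interferon count depended on which library was in the test. It was 2, 2 and 5 without replicate 1, 2 or 3 of CD8aa from CD4, and 7 and 4 without replicate 2 or 3 of CD8aa from CD8ab. It was 12 without replicate 2 of CD4 IEL and 1 with the Xist libraries alone. The median stayed between -1.49 and -0.83 when each of the 12 libraries was left out in turn. The companion groups went the same way, with 32 of the 52 lower in CD4 IEL than in CD8ab IEL and 0 higher and a median of -1.20. Ifit3 averaged 4.27 ± 0.924 CPM in CD8aa from CD4 and 71.5 ± 73.1 CPM in CD8aa from CD8ab, against 21.2 ± 12.2 CPM in CD4 IEL and 343 ± 234 CPM in CD8ab IEL (SD, n = 3 each). At Ifit3 each CD8aa group thus stood at about the same share of its companion, 20.2% in CD8aa from CD4 and 20.8% in CD8aa from CD8ab. Usp18 was alike, at 19.1% and 20.9%, but the shares were further apart at Oas3 (3.32% and 17.6%) and Rsad2 (51.1% and 85.1%). By the edgeR contrast, the difference between origins differed between CD8aa and companion groups at 2 of the 52 members.

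The core of the interferon response element, GAAANNGAA on either strand, stood in the promoters of 8 of 13 fallen interferon-stimulated genes with a promoter in the table (61.5%) and in 20 of the 38 tested ones (52.6%). The share was 8.18% of all 27025 genes and 7.54% of the tested genes. The windows of Ifit3, Ifit1 and Isg15, the last a ubiquitin-like modifier, show it in several overlapping or neighbouring copies, in capitals and in the direction of transcription. The first copy in the Ifit1 window is cut by the edge of the window.
Ifit3, chr19:34583403-34583459, plus strand: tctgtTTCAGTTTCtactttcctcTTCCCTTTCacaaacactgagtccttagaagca
Ifit1, chr19:34640781-34640837, plus strand: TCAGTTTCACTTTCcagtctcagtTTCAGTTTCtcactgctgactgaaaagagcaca
Isg15, chr4:156200852-156200908, minus strand: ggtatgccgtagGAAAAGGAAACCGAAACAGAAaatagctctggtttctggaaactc
In the first 2 windows the motif lies on the strand opposite to transcription, and in Isg15 on the same strand. Isg15 had 13.0, 27.7 and 17.0 CPM in CD8aa from CD4, against 32.4, 84.2 and 150 CPM in CD8aa from CD8ab. Its call ended without any 1 of the CD8aa from CD4 libraries (adjusted p = 0.147, 0.0576 and 0.0839 without replicates 1, 2 and 3) and without replicate 2 or 3 of CD8aa from CD8ab (adjusted p = 0.0739 and 0.124).

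**Figure D2:**
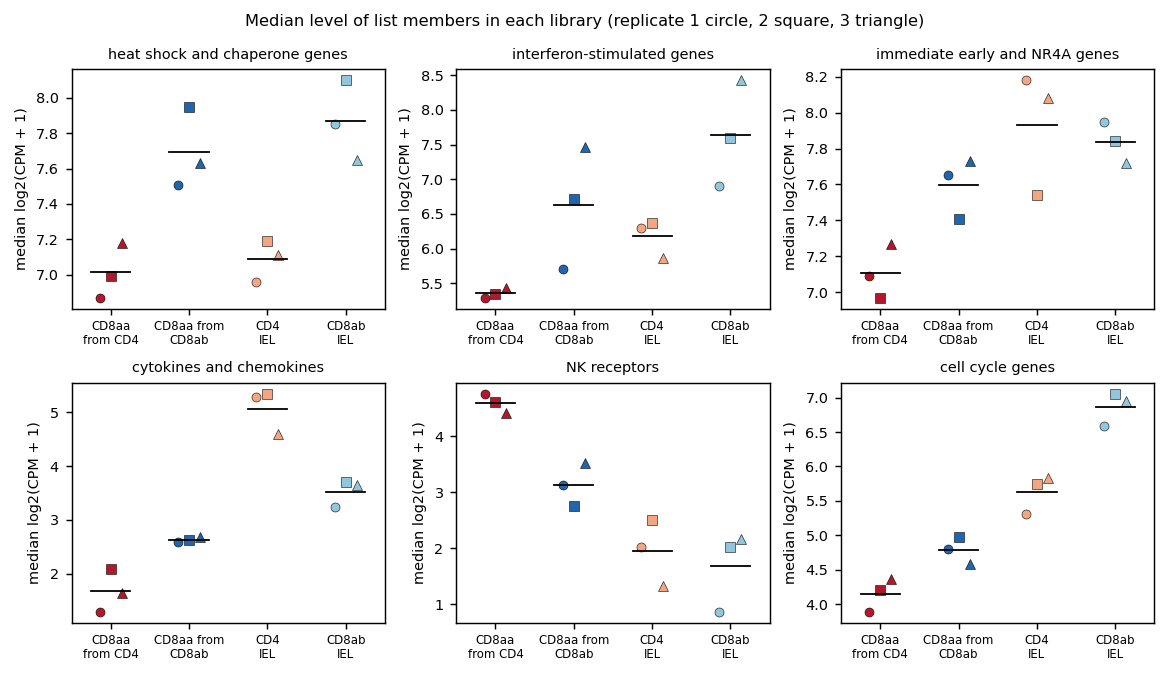
Median log2(CPM + 1) of the tested members of 6 gene lists in each library, with bars at the mean of the 3 libraries of a group. The chaperone, interferon and immediate early medians are lower in the 3 CD8aa from CD4 libraries than in the 3 CD8aa from CD8ab libraries, and the NK receptor median is higher. The interferon median of CD8aa from CD8ab spreads from 5.70 to 7.47.

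Immediate early genes, which are switched on within minutes of receptor signalling, moved mostly down. Of 34 tested, 10 fell and 2 rose in CD8aa from CD4 (35.3% called, against 4.34% of all genes tested), with a median of -0.52. Nr4a1, a nuclear receptor induced by T cell receptor signals, had 272, 273 and 250 CPM in CD8aa from CD4, against 985, 853 and 901 CPM in CD8aa from CD8ab. This was a tight separation, with a log2 fold change of -1.79 ± 0.13 (SE; edgeR adjusted p = 4.72e-05). In the companions the same gene had 2526, 2098 and 2366 CPM in CD4 IEL, against 3247, 2328 and 2838 CPM in CD8ab IEL, which did not pass (adjusted p = 0.137). The difference between origins was larger in CD8aa by 1.52 on the log2 scale in the downward direction (edgeR contrast of the 2 differences, adjusted p = 6.31e-04).

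Jun, a subunit of AP-1, had 708, 664 and 967 CPM in CD8aa from CD4, against 1465, 2705 and 2253 CPM in CD8aa from CD8ab, and its adjusted p of 0.00706 became 0.05 without replicate 1 of CD8aa from CD4. Atf3, a stress-induced factor of the ATF family, had 11.6, 18.2 and 34.3 CPM in CD8aa from CD4, against 83, 223 and 233 CPM in CD8aa from CD8ab. Arc, a regulator of synapses that is also induced in activated cells, had 2.56, 4.81 and 2.03 CPM in CD8aa from CD4, against 9.15, 32.3 and 16.6 CPM in CD8aa from CD8ab. These genes too were lower in all 3 libraries.

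The 2 members that rose were Rgs1, a brake on chemokine receptors, and Dusp5, a phosphatase of ERK. Rgs1 had 10477, 11304 and 9894 CPM in CD8aa from CD4, against 6221, 6260 and 6775 CPM in CD8aa from CD8ab, a log2 fold change of 0.72. The call of Dusp5 ended without replicate 1 of CD8aa from CD4 (adjusted p = 0.0654) and without replicate 3 of CD8aa from CD8ab (adjusted p = 0.0742). In the companion groups 10 members were higher in CD4 IEL and 6 lower, with a median of 0.37, so the list as a whole did not share its direction with them. The count of fallen members was 5 without replicate 1 of CD8aa from CD4 and 5 with the Xist libraries alone.

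The BCL-2 family and the cell cycle list held falls and no rise, where 2.47% of all genes tested fell. Of 16 tested members of the BCL-2 family 3 fell and 0 rose, with 6 positive and 10 negative fold changes, with 2 higher at an unadjusted p under 0.05 and 0 higher by DESeq2. Bcl2l1, which encodes the survival protein BCL-XL, had 85.3, 66.6 and 76.2 CPM in CD8aa from CD4, against 194, 257 and 202 CPM in CD8aa from CD8ab. The log2 fold change was -1.52 ± 0.15 (SE; edgeR adjusted p = 2.60e-04). Bcl2l11, which encodes the death-promoting BIM, had 160, 119 and 117 CPM in CD8aa from CD4, against 344, 247 and 285 CPM in CD8aa from CD8ab. A gene that guards against death and one that promotes it were thus both lower in every CD8aa from CD4 library.

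Of 44 cell cycle genes 7 fell and 0 rose, with a median of -0.39; 19 were lower and 0 higher at an unadjusted p under 0.05, and DESeq2 called 12 lower and 0 higher. Cdkn1a, the p21 inhibitor of cyclin-dependent kinases, had 13.1, 20.1 and 24.9 CPM in CD8aa from CD4, against 78.8, 102 and 95.5 CPM in CD8aa from CD8ab. Its log2 fold change of -2.24 ± 0.30 (SE; edgeR adjusted p = 0.00138) was the largest of the list. Cdc20, an activator of the ubiquitin ligase that ends mitosis, had 8.02, 11.6 and 12.5 CPM in CD8aa from CD4, against 21.1, 28.3 and 21 CPM in CD8aa from CD8ab. Its adjusted p missed the threshold without replicate 1 or 2 of CD8aa from CD4 (adjusted p = 0.129 and 0.0751) and without replicate 2 or 3 of CD8aa from CD8ab (adjusted p = 0.105 and 0.0566). An inhibitor of division and an activator of its last step were thus both lower. The cell cycle count was 2 and 4 without replicate 1 or 2 of CD8aa from CD4, 3 without replicate 2 of CD8aa from CD8ab and 1 with the Xist libraries alone. Between the companions 33 of the 44 were lower in CD4 IEL and 0 higher.

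Secreted and membrane-bound ligands were next. Of 30 cytokines and chemokines tested, 8 fell and 1 rose (30.0% called, against 4.34% of all genes tested), with a median of -0.28. Xcl1, a chemokine for cross-presenting dendritic cells, had 1.54, 2.75 and 2.96 CPM in CD8aa from CD4, against 9.25, 20.2 and 20.8 CPM in CD8aa from CD8ab. Its call ended without replicate 1 of CD8aa from CD4 (adjusted p = 0.0550). Csf2, the gene for GM-CSF, had 3 reads over the CD8aa from CD4 libraries and 146 over those of CD8aa from CD8ab. The rate in CD8aa from CD8ab was 35.5 times that in CD8aa from CD4, with a 95% exact counting interval from 11.9 to 174. The call did not hold without replicate 1 or 2 of CD8aa from CD4 (adjusted p = 0.0509 and 0.0587).

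Tgfb3, a transforming growth factor, had 240, 207 and 217 CPM in CD8aa from CD4, against 465, 466 and 439 CPM in CD8aa from CD8ab. In the companions it was higher in CD4 IEL, at 41.5, 67.9 and 46.8 CPM, than in CD8ab IEL, at 8.59, 12.7 and 9.87 CPM. Tnfsf8, the CD30 ligand, turned round in the same way. It had 29.9, 10.2 and 30.6 CPM in CD8aa from CD4, against 114, 120 and 147 CPM in CD8aa from CD8ab, with 85.3, 137 and 73.9 CPM in CD4 IEL and 8.17, 7.81 and 14.3 CPM in CD8ab IEL. The member that rose was Ltb, lymphotoxin beta, with 64.8, 68.8 and 80.1 CPM in CD8aa from CD4, against 24, 27.4 and 24.8 CPM in CD8aa from CD8ab. The count of fallen cytokines was 3 and 4 without replicate 1 or 2 of CD8aa from CD4, 5 without replicate 3 of CD8aa from CD8ab and 2 with the Xist libraries alone.

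NK receptors were the list with the largest rise. They bind MHC class I and stress ligands, and the Ly49 genes (Klra) and NKG2 genes (Klrc, Klrk) lie side by side on chromosome 6. Of 23 tested members 7 rose and 0 fell (30.4% called, against 4.34% of all genes tested), with a median of 1.02. At an unadjusted p under 0.05, 12 were higher and 4 lower, and DESeq2 called 8 higher and 2 lower. Klra7, or Ly49G, had 71.7, 52.0 and 117 CPM in CD8aa from CD4, against 8.13, 6.37 and 8.84 CPM in CD8aa from CD8ab. Its log2 fold change of 3.36 ± 0.58 (SE; edgeR adjusted p = 0.00694) was the largest rise among genes with a higher group mean over 31.2 CPM, and with the Xist libraries alone its adjusted p was 0.138. Companion levels of Klra7 were between 0 and 1.70 CPM. Ly49 genes are close copies, and how reads that match several were counted is not given in the sources used here.

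Klrc1, the inhibitory receptor NKG2A, had 25.9, 23.4 and 35.5 CPM in CD8aa from CD4, against 2.34, 4.57 and 4.59 CPM in CD8aa from CD8ab. The groups were well apart, with a log2 fold change of 2.89 ± 0.35 (SE; edgeR adjusted p = 7.95e-04). Between the companions it ran the other way, at 13 ± 3.19 CPM in CD4 IEL, against 240 ± 98.7 CPM in CD8ab IEL (SD, n = 3 each). Klra1, or Ly49A, had 75 reads in the CD8aa from CD4 libraries and 0 in those of CD8aa from CD8ab, at least 34.3-fold higher when 3 reads over the group stand for 0. Its call ended without replicate 1 of CD8aa from CD4 (adjusted p = 0.0829) and without replicate 2 or 3 of CD8aa from CD8ab (adjusted p = 0.0685 and 0.0700).

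Not every NK receptor was higher. Klrb1c, the NK1.1 antigen, had 206, 163 and 244 CPM in CD8aa from CD4, against 338, 318 and 341 CPM in CD8aa from CD8ab, which did not pass (adjusted p = 0.0790). Klra5, a Ly49 receptor, had 61.9, 53.9 and 126 CPM in CD8aa from CD4, against 137, 182 and 210 CPM in CD8aa from CD8ab, also short of the threshold (adjusted p = 0.248). At 9 of the 23 receptors the difference between origins differed between CD8aa and companion groups, against 2.56% of all genes tested. Between the companions 5 were higher and 8 lower in CD4 IEL, with a median of 0.00. The count of risen receptors was 2, 3 and 4 without replicate 1, 2 or 3 of CD8aa from CD4 and 3, 2 and 4 without replicate 1, 2 or 3 of CD8aa from CD8ab. It was 4 without replicate 1 of CD4 IEL and 1 with the Xist libraries alone.

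Cytotoxic genes had calls in both directions, in a larger share of members than among all genes tested (4.34%). Of 20 tested, 2 rose and 1 fell, and DESeq2 called 5 higher and 2 lower. The member that fell was Nkg7, a granule membrane protein. By edgeR, 1 was called higher and 0 lower without replicate 2 of CD8aa from CD4 or replicate 2 or 3 of CD8aa from CD8ab. The call of Nkg7 ended in these 3 fits (adjusted p = 0.130, 0.178 and 0.112), without replicate 1 of CD8aa from CD4 (adjusted p = 0.221), without replicate 1 or 2 of CD4 IEL (adjusted p = 0.0635 and 0.0711) and without replicate 3 of CD8ab IEL (adjusted p = 0.0558). Gzmk, granzyme K, had 51.7, 68.0 and 73.3 CPM in CD8aa from CD4, against 19.4, 14.9 and 25.8 CPM in CD8aa from CD8ab with a log2 fold change of 1.68 ± 0.22 (SE, edgeR adjusted p = 0.00138). Prf1, perforin, had 764, 1172 and 873 CPM in CD8aa from CD4, against 448, 480 and 458 CPM in CD8aa from CD8ab. The call was lost without replicate 2 of CD8aa from CD4 (adjusted p = 0.0908) and without replicate 2 or 3 of CD8aa from CD8ab (adjusted p = 0.0682 and 0.0792). In the companions both genes were lower in CD4 IEL than in CD8ab IEL. Gzmk averaged 118 ± 23 CPM in CD4 IEL and 473 ± 74.7 CPM in CD8ab IEL, and Prf1 averaged 124 ± 41.1 CPM in CD4 IEL and 191 ± 26.6 CPM in CD8ab IEL (SD, n = 3 each).

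Receptors for cytokines and for tissue homing held calls in both directions, in 23.3% and 19.4% of members, against 4.34% of all genes tested. Of 30 cytokine receptors 4 rose and 3 fell, and of 36 homing genes 5 rose and 2 fell. Without replicate 1 of CD8aa from CD4 these counts were 2 and 2, and 3 and 0. Without replicate 2 of CD8aa from CD8ab they were 2 and 2, and 4 and 0. The fallen homing genes numbered 1 without replicate 2 of CD8aa from CD4 or replicate 3 of CD8aa from CD8ab. Itga4, the α4 integrin that guides lymphocytes to the gut, had 51.9, 44.2 and 55.5 CPM in CD8aa from CD4, against 13.4, 10.2 and 7.58 CPM in CD8aa from CD8ab. The log2 fold change was 2.27 ± 0.21 (SE; edgeR adjusted p = 1.46e-04). Companion levels were 218, 183 and 202 CPM in CD4 IEL, against 279, 194 and 274 CPM in CD8ab IEL. Ccr9, the small intestinal homing receptor, had 220, 321 and 277 CPM in CD8aa from CD4, against 118, 152 and 111 CPM in CD8aa from CD8ab. It was higher in all 3 libraries and, by the edgeR test, also higher in CD4 IEL than in CD8ab IEL.

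Il4ra, a chain of the receptors for IL-4 and IL-13, fell to 92.8, 91.0 and 83.3 CPM in CD8aa from CD4, against 213, 240 and 245 CPM in CD8aa from CD8ab. The log2 fold change was -1.39 ± 0.14 (SE; edgeR adjusted p = 2.07e-04), with no call between the companions (adjusted p = 0.204). Il18rap, a chain of the IL-18 receptor, had 3.92, 18.2 and 6.55 CPM in CD8aa from CD4, against 0.560, 1.27 and 0.115 CPM in CD8aa from CD8ab. Il7r, the IL-7 receptor chain on which naive and memory T cells depend, had 9.21, 8.01 and 18.7 CPM in CD8aa from CD4, against 2.71, 2.76 and 3.33 CPM in CD8aa from CD8ab. Both were higher in each CD8aa from CD4 library, at levels of 2.92% and 2.47% of the mean in CD4 IEL for CD8aa from CD4.

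Some T cell genes that rose stood far below the companions. Icos, a costimulatory receptor, had 6.48, 10.3 and 11.5 CPM in CD8aa from CD4, against 0.841, 0.744 and 0.459 CPM in CD8aa from CD8ab. This was a log2 fold change of 3.75 ± 0.34 (SE; edgeR adjusted p = 1.28e-04), yet the means were 1.69% of that in CD4 IEL for CD8aa from CD4 and 0.356% of that in CD8ab IEL for CD8aa from CD8ab. Thy1, a surface protein of T cells, averaged 3.83 CPM in CD8aa from CD4 and 0.894 CPM in CD8aa from CD8ab, which is 1.95% and 0.456% of the companions. Its call ended without replicate 1 of CD8aa from CD4 (adjusted p = 0.0856) and without replicate 2 or 3 of CD8aa from CD8ab (adjusted p = 0.0949 and 0.0931). Ctla4, an inhibitory receptor, had 41.8, 113 and 66.7 CPM in CD8aa from CD4, against 20.4, 22.9 and 25.3 CPM in CD8aa from CD8ab, which averaged 9.15% and 7.03% of the companions. Of the αβ T cell markers, Cd6 averaged 8.63 CPM in CD8aa from CD4 and 3.04 CPM in CD8aa from CD8ab, without a call. The summed level of the 11 αβ T cell markers other than Cd3g overlapped, at 118, 94.2 and 182 CPM in the CD8aa from CD4 libraries and 163, 150 and 131 CPM in the CD8aa from CD8ab libraries. The part of these markers in the result was not tested.

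Cd226, an activating receptor, rose as well, with 26.1, 22.8 and 30.9 CPM in CD8aa from CD4, against 8.87, 8.50 and 9.30 CPM in CD8aa from CD8ab. Tnfrsf18, or GITR, fell, with 93.0, 83.5 and 100 CPM in CD8aa from CD4, against 171, 186 and 183 CPM in CD8aa from CD8ab. In the list of costimulatory and inhibitory receptors 3 of 28 rose and 2 fell (17.9% called, against 4.34% of all genes tested). Those fallen numbered 1 without replicate 1 or 2 of CD8aa from CD4 or replicate 3 of CD8aa from CD8ab. Of the T cell receptor complex and its proximal signals 1 of 36 rose and 4 fell (13.9% called). Cd3g was among those that fell, at 1900, 2131 and 2347 CPM in CD8aa from CD4, against 3293, 3777 and 3567 CPM in CD8aa from CD8ab. Trat1, an adaptor that stabilizes the receptor complex, was the member that rose, with 25.4, 33.4 and 51.1 CPM in CD8aa from CD4, against 9.81, 11.9 and 7.35 CPM in CD8aa from CD8ab. Its adjusted p was 0.0591 without replicate 3 of CD8aa from CD8ab. The 4 fallen members of that list were 2 without replicate 2 of CD8aa from CD4, any 1 CD8aa from CD8ab library or replicate 2 of CD4 IEL.

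The coreceptor and fate genes gave 1 call, at a coreceptor gene. Cd8b1, the CD8β chain, had 15.4, 16.4 and 20.6 CPM in CD8aa from CD4, against 3.46, 2.87 and 2.53 CPM in CD8aa from CD8ab, a log2 fold change of 2.55 ± 0.22 (SE; edgeR adjusted p = 1.12e-04). The group that came from hosts given CD8αβ T cells thus had the lower level, and both were under 2% of the 1123 ± 40.2 CPM in CD8ab IEL (SD, n = 3). Cd4 had 2.56, 2.98 and 3.27 CPM in CD8aa from CD4, against 3.55, 9.35 and 7.92 CPM in CD8aa from CD8ab (adjusted p = 0.199), with 1640 ± 93.0 CPM in CD4 IEL. Zbtb7b had 18.8, 19.7 and 15.7 CPM in CD8aa from CD4, against 14.6, 14.4 and 13.7 CPM in CD8aa from CD8ab (adjusted p = 0.575). Runx3 averaged 570 ± 12.3 CPM in CD8aa from CD4 and 546 ± 104 CPM in CD8aa from CD8ab (adjusted p = 0.873), and Themis, needed for T cell development, 7.31 ± 0.501 and 9.38 ± 2.49 CPM in the same groups (SD, n = 3 each; adjusted p = 0.392).

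**Figure D3:**
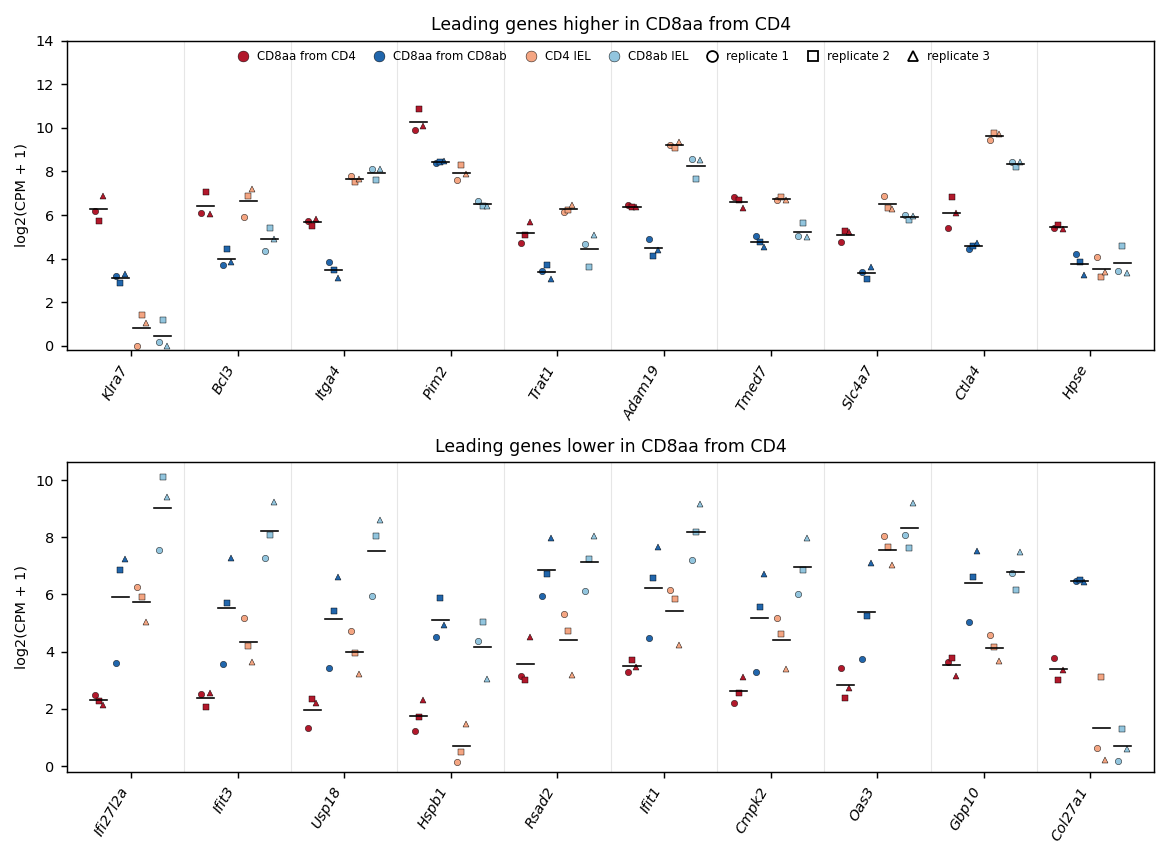
Levels, as log2(CPM + 1), of the 10 called genes with the largest rise (top) and the 10 with the largest fall (bottom) in CD8aa from CD4 among those whose higher group mean exceeded 31.2 CPM, in all 12 libraries, with bars at the group means of the log values. The CD8aa groups do not overlap at any of the 20 genes, which was a condition for their choice. In the lower panel 8 of the 10 are interferon-stimulated genes, which spread widely over the 3 CD8aa from CD8ab libraries, while Col27a1 stays within 84.6 to 90.6 CPM.

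Among the other leading rises, Pim2, a kinase of survival and growth signals, had 967, 1855 and 1087 CPM in CD8aa from CD4, against 336, 343 and 354 CPM in CD8aa from CD8ab. Its log2 fold change was 1.92 ± 0.23 (SE; edgeR adjusted p = 7.37e-04). Bcl3, an IκB-like partner of NF-κB p50 and p52, had 67.2, 131 and 64.9 CPM in CD8aa from CD4, against 12.2, 20.5 and 13.5 CPM in CD8aa from CD8ab with a log2 fold change of 2.51 ± 0.39 and an adjusted p of 0.00373. Both genes were also higher in CD4 IEL than in CD8ab IEL. Of 22 NF-κB response genes, Bcl3 rose, and Nfkbie and Nfkb2 fell (13.6% called, against 4.34% of all genes tested). The call of Nfkb2 ended without any 1 of the CD8aa libraries but replicate 3 of CD8aa from CD4, or of replicates 1 and 2 of CD4 IEL (adjusted p between 0.0521 and 0.182).

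Adam19, a membrane metalloprotease, had 86.5, 80.8 and 80.9 CPM in CD8aa from CD4, against 29.2, 16.5 and 19.9 CPM in CD8aa from CD8ab. Tmed7, a cargo receptor of the early secretory pathway, had 111, 101 and 78.7 CPM in CD8aa from CD4, against 31.7, 26.3 and 21.9 CPM in CD8aa from CD8ab. Slc4a7, a sodium bicarbonate transporter, had 25.9, 37.9 and 36.0 CPM in CD8aa from CD4, against 9.53, 7.33 and 11 CPM in CD8aa from CD8ab. Their adjusted p values by edgeR were 0.00107, 4.75e-04 and 8.89e-04. Hpse, heparanase, averaged 42.4 ± 2.53 CPM in CD8aa from CD4 and 13.1 ± 4.38 CPM in CD8aa from CD8ab (SD, n = 3 each). Its adjusted p of 0.0236 rose to 0.0806 and 0.0858 without replicate 1 or 2 of CD8aa from CD4, and to 0.0932 and 0.107 without replicate 2 or 3 of CD8aa from CD8ab.

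Col27a1, a fibrillar collagen chain, had 12.8, 7.10 and 9.36 CPM in CD8aa from CD4, against 87.1, 90.6 and 84.6 CPM in CD8aa from CD8ab. It was near 0 in both companions, at 2.80 CPM in CD4 IEL and 0.703 CPM in CD8ab IEL. Its adjusted p of 0.0235 lay between 0.0699 and 0.107 without any 1 of the 3 CD8aa from CD4 libraries or of replicates 2 and 3 of CD8aa from CD8ab, and DESeq2 gave 0.0502. Akp3, an intestinal alkaline phosphatase, had 0 reads in CD8aa from CD4 and 449 in CD8aa from CD8ab, at least 109-fold lower in CD8aa from CD4 with 3 reads over the group standing for 0. It had 15.7 ± 11.4 CPM in CD8ab IEL and 0.116 ± 0.110 CPM in CD4 IEL (SD, n = 3 each). Of the epithelial markers, whose summed levels overlapped, Epcam had 95.4, 106 and 99.5 CPM in CD8aa from CD4, against 183, 232 and 205 CPM in CD8aa from CD8ab (edgeR adjusted p = 0.147). Cdh17 went the other way, at 207, 329 and 202 CPM in CD8aa from CD4, against 107, 133 and 100 CPM in CD8aa from CD8ab, without a call. The 26 tested epithelial markers had a median log2 fold change of -0.21, with 0 called higher and 0 lower. The part of epithelial RNA in the level of Akp3 was not tested. Cebpb, a transcription factor of myeloid and stress responses, had 42.3, 9.96 and 4.37 CPM in CD8aa from CD4, against 1.03, 0.531 and 0.459 CPM in CD8aa from CD8ab, with an adjusted p of 0.0145 that became 0.0856 without replicate 1 of CD8aa from CD4, 0.0755 without replicate 2 of CD8aa from CD8ab and 0.0792 without its replicate 3.

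The difference between origins was then set beside that of the companions, with which it shares no library. The libraries of CD8aa from CD8ab and CD8ab IEL with the same replicate number deviated together, with correlations of 0.205, 0.326 and 0.0978 over genes, so the 2 comparisons may not be independent. Of the 548 genes called between the CD8aa groups, 336 were called in the same direction between CD4 IEL and CD8ab IEL, which is 61.3% of the CD8aa calls and 9.20% of the companion calls. Of all genes tested, 28.9% were called between the companions, 12.9% higher and 16.0% lower in CD4 IEL. The 336 shared genes divide into 138 higher and 198 lower. Their median absolute log2 fold change was 0.99 between the CD8aa groups and 1.22 between the companions. Across the 12622 genes the 2 log2 fold changes had a Pearson correlation of 0.29 and a Spearman correlation of 0.46, given as a description since genes are not independent replicates. Without replicate 1 or 2 of CD8aa from CD4 the shared count was 93 and 117, without replicate 2 or 3 of CD8aa from CD8ab 109 and 107, and without replicate 2 of CD4 IEL 204.

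Another 186 of the 548 were not called between the companions. A missing call does not show a difference, and the direct contrast of the 2 differences passed at 35 of these 186. Over all genes it passed at 323 (2.56%), of which 75 were called between the CD8aa groups. The contrast count lay between 147 and 200 without replicate 2 or 3 of CD8aa from CD4, replicate 1 or 3 of CD8aa from CD8ab or replicate 2 of CD4 IEL, and was 109 with the Xist libraries alone.

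At 26 genes (4.74% of the CD8aa calls) the 2 comparisons were called in opposite directions. Cd8b1, Klrc1 and Tnfsf8, given above, were among the 5 with the largest size in both. Adamts14, a procollagen protease, had 13.0, 43.5 and 26.4 CPM in CD8aa from CD4, against 3.36, 0.956 and 2.53 CPM in CD8aa from CD8ab, with 0.363 CPM in CD4 IEL and 5.09 CPM in CD8ab IEL. Col1a2, a chain of type I collagen, had 0.171, 0.114 and 0.780 CPM in CD8aa from CD4, against 10.9, 13.9 and 8.84 CPM in CD8aa from CD8ab, with 0.885 CPM in CD4 IEL and no read in CD8ab IEL. Its adjusted p missed the threshold without replicate 1 or 2 of CD8aa from CD4 (adjusted p = 0.116 and 0.0995) and without replicate 2 or 3 of CD8aa from CD8ab (adjusted p = 0.0947 and 0.0704). Of the 12 stromal and endothelial markers, 7 had no read in any CD8aa from CD4 library, and 7 had none in any CD8aa from CD8ab library. The 5 tested, Col1a2 among them, had a median log2 fold change of -3.10. Pecam1, which made up most of the summed level, averaged 539 CPM in CD8aa from CD4 and 644 CPM in CD8aa from CD8ab, a log2 fold change of -0.26 without a call. Pdgfrb had no read in either CD8aa group. Col1a1 had 0, 0.114 and 0.156 CPM in CD8aa from CD4, against 0, 0.744 and 2.07 CPM in CD8aa from CD8ab. Kdr had no read in CD8aa from CD4, against 0.374, 1.38 and 3.22 CPM in CD8aa from CD8ab, and neither was called. Their part in the level of Col1a2 was not tested.

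**Figure D4:**
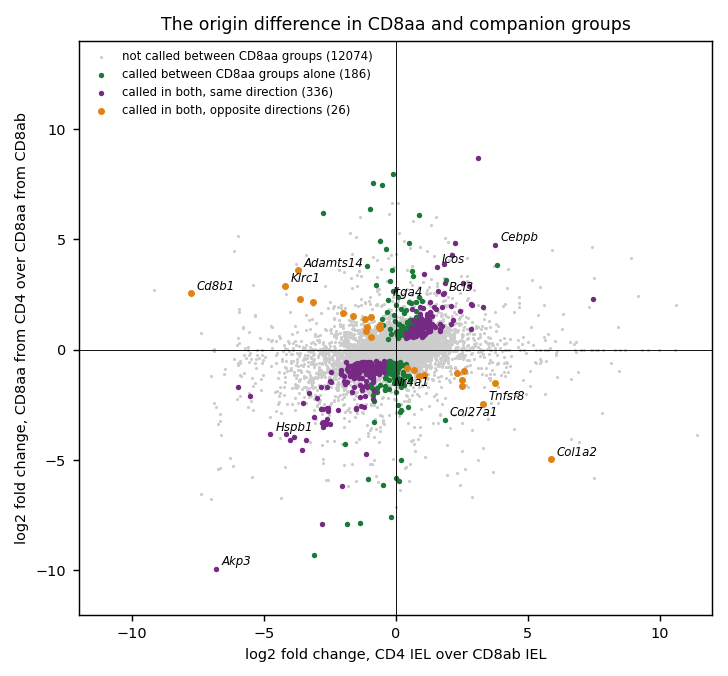
Log2 fold change between origins in the CD8aa groups (vertical) against that in the companion groups (horizontal) for the 12622 genes tested. Purple marks the 336 genes with calls of 1 direction in both, orange the 26 called in opposite directions and green the 186 called between the CD8aa groups alone. Fitted values of genes with no read in a group, such as Akp3, depend on the prior count.

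Of the remaining lists the natural IEL signature had 17.9% of its members called and the MHC class I list 14.3%, against 4.34% of all genes tested. Of 30 nuclear oxidative phosphorylation genes 3 fell and 0 rose, with a median of -0.28, and of 21 MHC class I and antigen presentation genes 3 fell and 0 rose, with a median of -0.30. At an unadjusted p under 0.05 they had 9 lower and 0 higher, and 7 lower and 1 higher; DESeq2 called 5 and 6 lower and 0 higher in either. In the companions 24 and 11 members of these lists were lower in CD4 IEL, and 0 higher. B2m, the light chain of MHC class I, had 3641, 4290 and 4989 CPM in CD8aa from CD4, against 5563, 6759 and 7173 CPM in CD8aa from CD8ab, a log2 fold change of -0.59. Scaling by library totals alone left 1 fallen member in the MHC class I list. Without replicate 1 or 2 of CD8aa from CD4 or replicate 2 or 3 of CD8aa from CD8ab, 0 oxidative phosphorylation genes and at most 1 MHC class I gene were called. B2m ended its call in those 4 fits (adjusted p between 0.129 and 0.221), without replicate 1 or 2 of CD4 IEL (adjusted p = 0.0692 and 0.0694) and without replicate 3 of CD8ab IEL (adjusted p = 0.0545).

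Of 20 glycolysis genes Pdk1 alone fell, and of 13 solute carriers Slc29a1 alone. Neither call held without replicate 1 or 2 of CD8aa from CD4, among other libraries. Of 27 sterol and fatty acid synthesis genes and 5 aryl hydrocarbon receptor genes edgeR called 0. At an unadjusted p under 0.05, 4 sterol genes were lower and 1 aryl hydrocarbon receptor gene was higher, and DESeq2 called 1 sterol gene lower. Among 36 lineage and effector transcription factors 3 rose and 1 fell, and 0 were called without replicate 2 of CD8aa from CD8ab. Zeb2, a zinc finger repressor active in effector lymphocytes, had 6.99, 6.53 and 5.46 CPM in CD8aa from CD4, against 1.49, 0.744 and 0 CPM in CD8aa from CD8ab, and its adjusted p of 0.0122 became 0.0538 without replicate 2 of CD8aa from CD8ab. Of 28 genes in a natural IEL signature Klra7 and Klrc1 rose and 3 fell, with 0 or 1 fallen without replicate 1 or 2 of CD8aa from CD4 or replicate 2 or 3 of CD8aa from CD8ab.

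**Figure D5:**
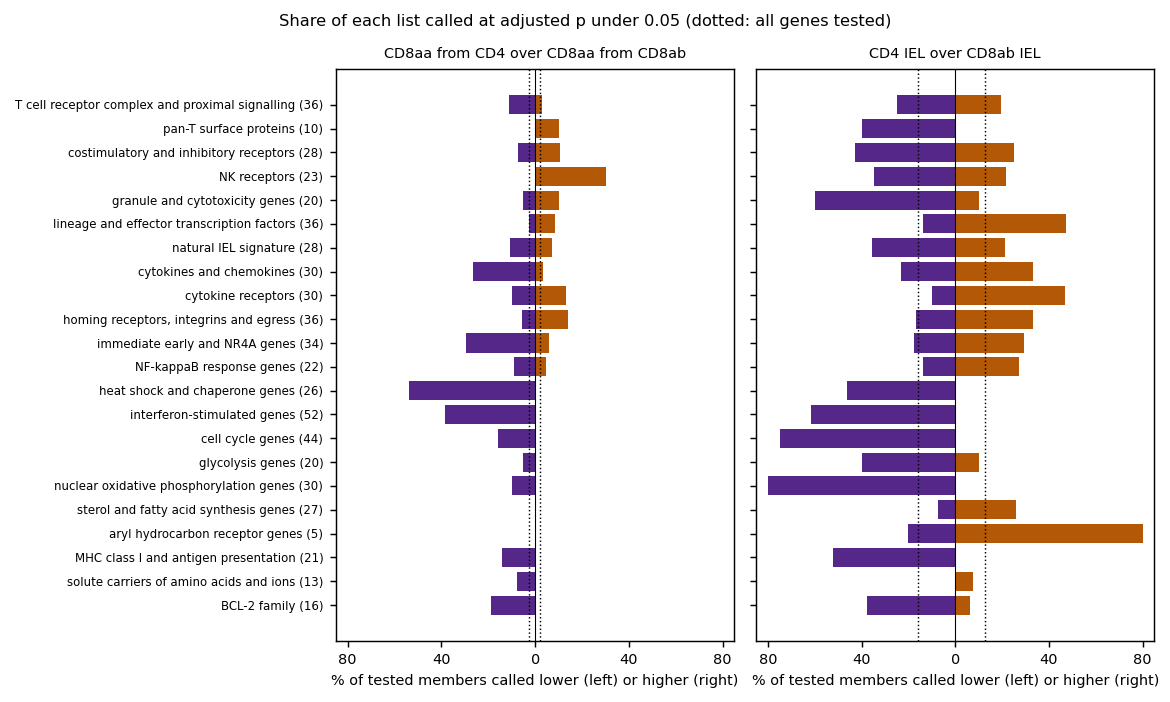
Percent of the tested members of each list called lower (left of 0) or higher (right of 0) in CD8aa from CD4 over CD8aa from CD8ab (left panel) and in CD4 IEL over CD8ab IEL (right panel). Dotted lines mark the share of all genes tested. Chaperone genes have 14 of 26 and interferon-stimulated genes 20 of 52 members called lower between the CD8aa groups, and NK receptors 7 of 23 called higher.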

How the data were processed

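The authors deposited 1 table of raw read counts per gene with 25965 rows. Per the submitters' processing notes, reads were aligned with HISAT2 2.1.0 to mm10. The counting tool, annotation, strand setting and treatment of multi-mapping reads have no record in the labels or notes, so overlapping and antisense genes cannot be told apart. Rows sharing a symbol (66, holding 0.0202% of reads) were left out. Counts were tested with edgeR 4.0.16 in R 4.3.3 (TMM scaling, filterByExpr with minimum count 10, quasi-likelihood F-test, 1 model over the 4 groups, two-sided, Benjamini-Hochberg adjustment over 12622 genes, called under 0.05). CPM are TMM-scaled. The standard error of a log2 fold change was derived from the test, as its absolute value over the square root of the F statistic. The test was run on simulated data first. Alternatives were DESeq2 1.42.0, other scalings, filters, terms and each library left out.

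Named genes were the coreceptor and fate genes, the 10 largest non-overlapping rises and falls whose higher mean CPM exceeded 31.2, up to 2 called members per list, and 5 genes each called the same and opposite ways in both comparisons. Other genes were chosen after their values were seen. The members and lists were chosen with earlier results of these data known. Replicate numbers were not taken as pairs. Promoter sequences are RefSeq's (GRCm38.p6).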

Additional observations from a re-analysis of the deposited data

Results flagged for a closer look

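For 16 named genes the log2 difference between origins in the CD8aa groups, less that between the companion groups, passed the edgeR contrast at an adjusted p under 0.05. Of the coreceptor and fate genes it was 10.32 for Cd8b1, 5.35 for Cd8a, -7.34 for Cd4 and -1.92 for Zbtb7b, where the companions were sorted on the first 3 of these. It was positive for Klrc1 (7.09), Adamts14 (7.28), Gzmk (3.68), Itga4 (2.58), Icos (2.20) and Prf1 (1.63). It was negative for Col1a2 (-10.86), Tnfsf8 (-5.75), Csf2 (-5.20), Col27a1 (-5.02), Pdk1 (-1.58) and Bcl2l1 (-1.43). The values of Col1a2, with no read in CD8ab IEL, and of Csf2, with 3 reads in CD8aa from CD4, depend on the prior count.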

How the results depend on the processing

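The count of 548 was 1036 by DESeq2, 959 with the libraries of the 2 groups alone, 141 with the CD8aa libraries carrying Xist, 78 against a 1.5-fold threshold, and 166 to 714 with 1 library left out. Companion calls were 1325 against the 1.5-fold threshold. The shared count of 336 was 652 by DESeq2, 88 with the Xist libraries, and 93 to 382 with 1 library left out. The contrast count of 323 was 806 by DESeq2, 109 with the Xist libraries, and 147 to 368 with 1 library left out. The median absolute log2 fold change stayed within 0.05 of 0.31 in every setting but DESeq2 and the 1.5-fold threshold, where it was not computed. Replicate numbers correlated at 0.0834, 0.0218 and -0.0214 between the CD8aa groups, which are therefore not taken as paired, and at 0.205, 0.326 and 0.0978 between CD8aa from CD8ab and CD8ab IEL; with a replicate block the count was 663. Of 56 named calls 26 held in all 12 fits that left out 1 library, and 31 ended with the Xist libraries alone. Runx3, not called, ran from -0.08 without replicate 3 of CD8aa from CD8ab, a reversal, to 0.19 without its replicate 2. For each of these the cause was not tested. List counts by setting were added after the data were seen. With 3 libraries a group, depth and number limit low genes such as Klra1.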
